A study of Homo sapiens with 16 samples.

Results

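The 10 genes described here carry out DNA replication or make its building blocks: the 6 subunits of the MCM2-7 helicase (MCM2, MCM3, MCM4, MCM5, MCM6 and MCM7), the sliding clamp PCNA, both subunits of ribonucleotide reductase (RRM1 and RRM2) and thymidylate synthase (TYMS). They were chosen by gene symbol, and each symbol was found once among the 60623 gene identifiers of the expression values. Messenger RNA was measured in 16 libraries of 2 human tumour cell lines, the colorectal adenocarcinoma line Caco-2 and the hepatocellular carcinoma line HepG2, which stood for gut and liver on a microfluidic chip. Both lines were grown alone (mono-culture) or joined by circulating medium (co-culture), and each culture was kept without (control) or with 1 mM free fatty acids (FFA), a mix of palmitic and oleic acid, which gave 8 groups of 2 libraries. The labels place sampling at 1 day of treatment, whereas the methods of the study also describe a longer treatment, and which of them these libraries hold was not settled. By the methods of the study, the cells were starved in medium without serum before FFA, and the FFA medium itself held albumin in place of serum to limit proliferation. Whether the controls had the same medium is not stated for these libraries. Each line is a single established tumour line, and valves on the chip let the lines be harvested apart.

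The MCM2-7 ring is loaded onto origins of replication in G1 phase and, once activated in S phase, unwinds the DNA ahead of the replication fork. PCNA encircles the DNA behind it and holds the polymerases in place. Ribonucleotide reductase, made of the large subunit RRM1 and the small subunit RRM2, turns ribonucleotides into deoxyribonucleotides, and TYMS makes the thymidine nucleotide needed only for DNA. Most of these genes are transcribed at the G1/S boundary under E2F transcription factors, so their messages are widely used as signs of dividing cells.

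Because these genes are known targets of E2F, the RefSeq promoter windows (GRCh38.p14; 250 bases before to 50 after each start) were searched for the 8-letter E2F strings TTTCCCGC, TTTCGCGC, TTTGCCGC and TTTGGCGC and for CCAAT, on both strands. MCM4 and MCM5 had no window, and 8 members did. E2F letters were present in windows of 6 members (MCM2, MCM3, MCM6, MCM7, PCNA and TYMS), against 3.99% of the 27305 genes with a window (3.31% of all 35116 windows), and CCAAT in windows of 6 members (MCM3, MCM6, MCM7, PCNA, RRM1 and RRM2), against 39.7% of genes (34.6% of windows). In MCM2 the E2F letters lay after the start. The 60-base stretches below, 5′ to 3′ on the strand of the gene and all before the start, show the letters of the members on which the comparisons turn, with E2F strings and CCAAT (or its complement ATTGG) in capitals.
MCM6, chr2:135876500-135876559, minus strand: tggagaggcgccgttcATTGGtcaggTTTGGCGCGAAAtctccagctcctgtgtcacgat
RRM2, chr2:10122643-10122702, plus strand: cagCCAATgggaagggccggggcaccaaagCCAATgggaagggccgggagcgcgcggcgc
RRM1, chr11:4094625-4094684, plus strand: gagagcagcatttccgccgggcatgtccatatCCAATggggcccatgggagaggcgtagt
PCNA, chr20:5126652-5126711, minus strand: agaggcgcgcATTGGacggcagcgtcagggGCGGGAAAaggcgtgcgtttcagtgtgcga
MCM7, chr7:100101398-100101457, minus strand: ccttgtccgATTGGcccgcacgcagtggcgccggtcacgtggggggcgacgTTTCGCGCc
TYMS, chr18:657584-657643, plus strand: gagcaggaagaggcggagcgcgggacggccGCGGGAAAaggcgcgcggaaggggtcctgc
MCM3, chr6:52284887-52284946, minus strand: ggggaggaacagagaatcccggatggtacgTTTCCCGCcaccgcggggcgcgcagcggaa

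In MCM6 an E2F string and its partner on the other strand overlap, and the same pair of strings recurs further upstream, beginning 152 bases before the start. RRM2 carried CCAAT 3 times in its first listed window, at 123, 93 and 66 bases before the start, and no E2F string. RRM1 carried CCAAT once, 28 bases before the start, and no E2F string. These matches describe letters, and no binding was measured.

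On GRCh38, in the GENCODE 44 annotation, the members lie as follows. MCM2 is on chromosome 3, 127598410 to 127622436, plus strand, MCM3 on chromosome 6, 52264014 to 52284881, minus strand, MCM4 on chromosome 8, 47960185 to 47978160, plus strand and MCM5 on chromosome 22, 35400134 to 35425431, plus strand. MCM6 is on chromosome 2, 135839626 to 135876443, minus strand, and MCM7 on chromosome 7, 100092233 to 100101940, minus strand. PCNA is on chromosome 20, 5114953 to 5126626, minus strand, RRM1 on chromosome 11, 4094707 to 4138932, plus strand, RRM2 on chromosome 2, 10120698 to 10211725, plus strand and TYMS on chromosome 18, 657653 to 673578, plus strand. TYMS overlaps 2 genes of the opposite strand, TYMSOS with 151 reads in all libraries and ENOSF1 with 99, against 191 reads for TYMS itself. MCM7 (193 reads) overlaps AP4M1 (51 reads) on the opposite strand. Since it is not stated whether strand was used in counting, the reads of these pairs cannot be told apart. The pseudogenes of PCNA, RRM2 and TYMS that carry an identifier of their own were listed at 0 reads.

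Levels are in CPM, that is, a gene's reads scaled to the same total in every library. Libraries held 49634 to 1657430 reads, a 33.4-fold range, so that 1 read was worth 0.603 to 20.1 CPM and the floor of 3 reads lay between 1.81 and 60.4 CPM. Both HepG2 co-culture FFA libraries were shallow (147096 and 49634 reads), and in the shallower of them 9 of the 10 members had fewer than 3 reads. The methods of the study speak of independent experiments for mRNA-seq, without tying them to libraries, and the labels give replicate numbers only, so p-values measure the spread between 2 libraries a group, part of which may be technical. In bulk RNA, fewer cycling cells and less message per cell cannot be told apart. CDH17, a marker of Caco-2, was at 18.5 to 49.5 CPM in Caco-2 and listed at 0 in all 8 HepG2 libraries, whereas the enterocyte markers SI, ISX and LGALS4 reached at most 3.08 CPM in Caco-2. The summed level of 10 HepG2 markers was 8924 to 12078 CPM in Caco-2 and 44871 to 77748 CPM in HepG2. Of these markers, 9 were higher in HepG2 by limma, and TTR was lower (-0.36 on the log2 scale).

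**Figure D1:**
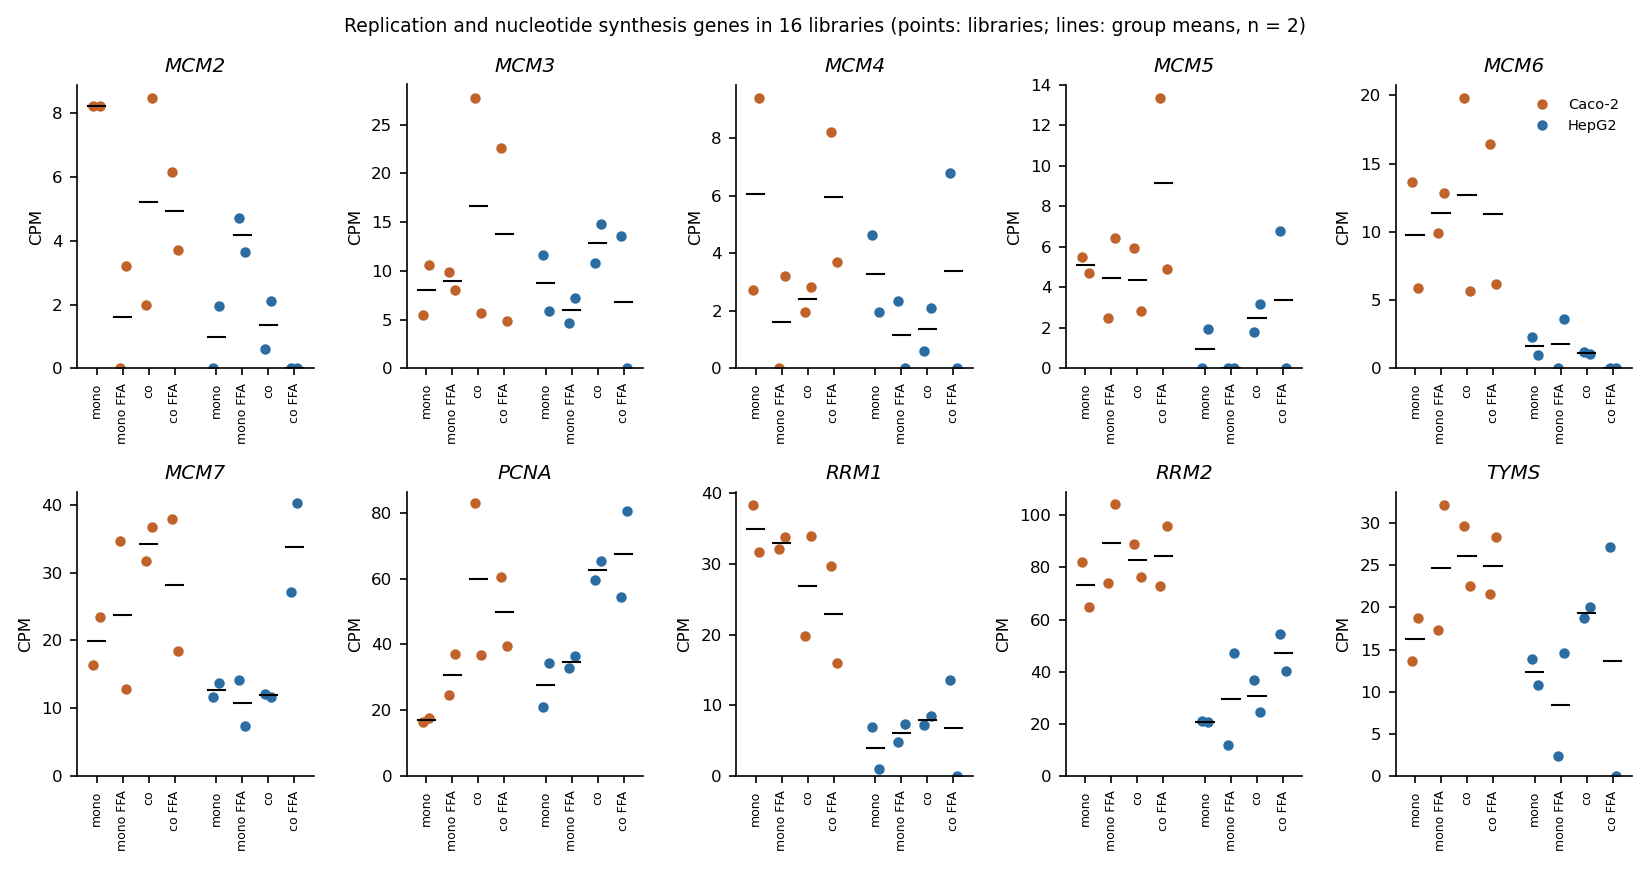
Level of each of the 10 genes in CPM (vertical axes, linear, starting at 0) in every library, by cell line and condition; points are libraries and short lines are means of 2. RRM1, RRM2 and MCM6 were listed lower in every HepG2 library than in any Caco-2 library, which was not counted for all genes. PCNA stood at 16.4 to 37.0 CPM in mono-cultured Caco-2 and 36.7 to 83.2 CPM in co-cultured Caco-2.

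Per kilobase of the canonical transcript, the members spanned a wide range of levels, with PCNA and RRM2 at the top in both lines. In Caco-2 the order was PCNA (30.9 CPM per kb), RRM2 (25.3), TYMS (14.3), MCM7 (10.8), RRM1 (9.37), MCM3 (3.87), MCM6 (3.01), MCM5 (1.67), MCM2 (1.46) and MCM4 (0.987). Of the neighbours in this order, RRM2 and TYMS, and RRM1 and MCM3, differed by more than their combined SD between replicates, and the other 7 pairs did not. In HepG2 the order was PCNA (37.7 CPM per kb), RRM2 (9.83), TYMS (8.34), MCM7 (6.99), MCM3 (2.80), RRM1 (1.96), MCM4 (0.568), MCM5 (0.496), MCM2 (0.474) and MCM6 (0.307). Here PCNA and RRM2, and MCM7 and MCM3, differed by more than their combined SD. MCM6 was listed above 3 other members in Caco-2 and last in HepG2, as it was without division by length. In neither line did it differ from a neighbour by more than their combined SD. Its last place in HepG2 rests on 6 reads, against 8 for MCM2, so this shift of rank is not resolved. Whether reads rise with transcript length in these nanopore libraries was not tested, and the order of the upper members depended on that division. Without it, Caco-2 had RRM2 (82.5 CPM) above PCNA (39.5), RRM1 (29.4), MCM7 (26.5) and TYMS (23.0), and HepG2 had PCNA (48.1 CPM), RRM2 (32.0), MCM7 (17.2) and TYMS (13.4). Although the helicase holds its 6 subunits in equal number, MCM7 made up 47.7% of the pooled MCM2-7 level per kilobase in Caco-2 (327 reads for all 6) and 51.2% in HepG2 (145 reads). MCM6 made up 13.4% and 3.16%, and MCM4 5.39% and 4.37%. As shares of reads, with no division by length, MCM7 made up 39.4% and 44.1%, and MCM6 16.8% and 4.14%.

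The first comparison asked how the members differed between the lines, with the 4 conditions averaged. RRM1, RRM2, MCM5 and MCM6 were lower in HepG2 than in Caco-2, whereas PCNA had a higher mean there and did not pass. Of the 10 members, 4 passed the test and all 4 were lower in HepG2. Of all 17544 genes tested, 30.3% passed, 17.9% lower and 12.5% higher in HepG2. The median difference of the members was -1.21 on the log2(CPM + 1) scale, against -0.16 for all genes. Differences on this scale understate those of genes at low levels. The test was limma on 16 libraries with adjustment over all genes (Benjamini-Hochberg, threshold 0.05, two-sided).

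RRM2, the small subunit that limits the activity of ribonucleotide reductase in S phase, was the member with the most reads. In Caco-2 cells, RRM2 stood at 82.1 and 64.6 CPM in mono-culture without FFA, 74.2 and 104 CPM in mono-culture with FFA, 89.2 and 76.3 CPM in co-culture without FFA and 72.8 and 96.1 CPM in co-culture with FFA. In HepG2 cells, RRM2 stood at 20.9 and 20.5 CPM in mono-culture without FFA, 11.8 and 47.3 CPM in mono-culture with FFA, 36.8 and 24.3 CPM in co-culture without FFA and 54.4 and 40.3 CPM in co-culture with FFA. All 8 HepG2 values lay below the lowest Caco-2 value, and the difference was -1.47 ± 0.25 (SE, 95% interval -1.99 to -0.94, adjusted p = 0.000373) by limma. How many of all genes were separated by line in this way was not counted, here and for the genes below. Pooled over the libraries of a line, RRM2 had 401 reads, or 82 CPM with an exact Poisson 95% interval of 74.2 to 90.5, in Caco-2, and 142 reads, or 28.7 CPM with an exact Poisson 95% interval of 24.1 to 33.8, in HepG2. These intervals cover counting error only.

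RRM1, the large subunit, followed the same order. In Caco-2 cells, RRM1 stood at 38.3 and 31.7 CPM in mono-culture without FFA, 32.1 and 33.7 CPM in mono-culture with FFA, 19.8 and 33.9 CPM in co-culture without FFA and 29.7 and 16 CPM in co-culture with FFA. In HepG2 cells, RRM1 stood at 6.97 and 0.980 CPM in mono-culture without FFA, 4.71 and 7.28 CPM in mono-culture with FFA, 7.23 and 8.46 CPM in co-culture without FFA and 13.6 and 0 CPM in co-culture with FFA. Again no HepG2 library was listed as high as the lowest Caco-2 library. In the shallowest HepG2 library, listed at 0, 1 read was worth 20.1 CPM, above that lowest value, so the separation depends on this 0. The limma difference was -2.42 ± 0.49 (SE, 95% interval -3.47 to -1.37, adjusted p = 0.00164). Pooled over the libraries of a line, RRM1 had 139 reads, or 28.4 CPM with an exact Poisson 95% interval of 23.9 to 33.6, in Caco-2. In HepG2 it had 30 reads, or 6.06 CPM with an exact Poisson 95% interval of 4.09 to 8.65. The pooled level per kilobase of RRM2 was 2.78 times that of RRM1 in Caco-2 and 4.56 times in HepG2. Whether these ratios differ between the lines was not tested. The 0 in HepG2 co-culture with FFA came from the shallowest library and allows up to 60.4 CPM, so it does not place RRM1 in that group.

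MCM6 was the helicase subunit with the largest difference. In Caco-2 cells, MCM6 stood at 13.7 and 5.88 CPM in mono-culture without FFA, 9.90 and 12.8 CPM in mono-culture with FFA, 19.8 and 5.65 CPM in co-culture without FFA and 16.4 and 6.16 CPM in co-culture with FFA. In HepG2 cells, MCM6 stood at 2.32 and 0.980 CPM in mono-culture without FFA, 0 and 3.64 CPM in mono-culture with FFA, 1.21 and 1.06 CPM in co-culture without FFA and 0 and 0 CPM in co-culture with FFA. The listed values of the lines did not overlap, and the limma difference was -2.61 ± 0.45 (SE, 95% interval -3.57 to -1.64, adjusted p = 0.000470). In the shallowest HepG2 library 1 read was worth 20.1 CPM, above every Caco-2 value, so the separation depends on its 0. The HepG2 values rest on few reads, since MCM6 had 6 reads, or 1.21 CPM with an exact Poisson 95% interval of 0.445 to 2.64, in HepG2, and 55 reads, or 11.3 CPM with an exact Poisson 95% interval of 8.48 to 14.6, in Caco-2. None of the HepG2 libraries held 3 reads of MCM6, and the 0 of both shallow co-culture FFA libraries says little of its level there.

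MCM5, another subunit of the ring, differed by -1.62 ± 0.50 (SE, 95% interval -2.69 to -0.55, adjusted p = 0.0237), at 2.48 to 13.3 CPM with a median of 5.20 in Caco-2 and 0 to 6.80 CPM with a median of 0.905 in HepG2. Of the HepG2 libraries, 6 lay below all Caco-2 libraries and 4 had no MCM5 read. Leaving out 1 library at a time kept MCM5 past the threshold in 10 of 16 fits, with an adjusted p of up to 0.0644, and by DESeq2 its adjusted p was 0.0684. RRM1, RRM2 and MCM6 passed in all 16 such fits. With both shallow HepG2 co-culture FFA libraries left out and the line difference taken over the other conditions, 32.1% of all genes and 5 members passed by limma: RRM1 (-2.36, adjusted p = 3.52e-05), RRM2 (-1.68, adjusted p = 9.69e-05), MCM5 (-1.59, adjusted p = 0.0164), MCM6 (-2.32, adjusted p = 0.00150) and MCM7 (-1.01, adjusted p = 0.0122).

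The other members did not pass. MCM2 was at 0 to 8.48 CPM with a median of 4.93 in Caco-2 and 0 to 4.71 CPM with a median of 1.28 in HepG2, a difference of -1.22 ± 0.46 (SE, 95% interval -2.20 to -0.24, adjusted p = 0.0583). MCM7 was at 12.8 to 38 CPM with a median of 27.6 in Caco-2 and 7.28 to 40.3 CPM with a median of 12.9 in HepG2, a difference of -0.68 ± 0.27 (SE, 95% interval -1.26 to -0.11, adjusted p = 0.0699). Both intervals lie below 0, but neither call survived adjustment. TYMS ranged over 13.7 to 32.1 CPM with a median of 22.1 in Caco-2 and 0 to 27.2 CPM with a median of 14.2 in HepG2. Its difference was -1.20 ± 0.56 (SE, 95% interval -2.40 to -0.00245, adjusted p = 0.123), an interval that ends just below 0. MCM3, at 4.92 to 27.7 CPM with a median of 8.97 in Caco-2 and 0 to 14.8 CPM with a median of 9.07 in HepG2, differed by -0.52 ± 0.54 (SE, 95% interval -1.68 to 0.65, adjusted p = 0.483). MCM4 had 24 reads in all Caco-2 libraries and 9 in all HepG2 libraries, and differed by -0.65 ± 0.55 (SE, 95% interval -1.83 to 0.53, adjusted p = 0.407). PCNA was the one member with a higher mean in HepG2, at 16.4 to 83.2 CPM with a median of 36.8 in Caco-2 and 20.9 to 80.6 CPM with a median of 45.4 in HepG2, a difference of 0.35 ± 0.21 (SE, 95% interval -0.10 to 0.81, adjusted p = 0.239). With 200 and 241 reads, a fall of PCNA in HepG2 beyond 0.10 on the log2 scale lies outside the interval.

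edgeR's quasi-likelihood test on whole reads could test 6 members (MCM3, MCM7, PCNA, RRM1, RRM2 and TYMS) and called 4 of them, all lower in HepG2, where it called 66.9% of the 5101 genes it tested. These were RRM2, RRM1, MCM7 (adjusted p = 0.00706) and TYMS (adjusted p = 0.0120). A count of 4 among 6 members lies near the share of all genes that edgeR called. In mono-culture without FFA alone, where 10.6% of all genes passed, RRM2 was the 1 member to pass, at -1.77 ± 0.49 (SE, 95% interval -2.82 to -0.71, adjusted p = 0.0335) by limma. RRM1 there was at -3.17 ± 0.97 (SE, 95% interval -5.27 to -1.08, adjusted p = 0.0539) and did not pass.

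**Figure D2:**
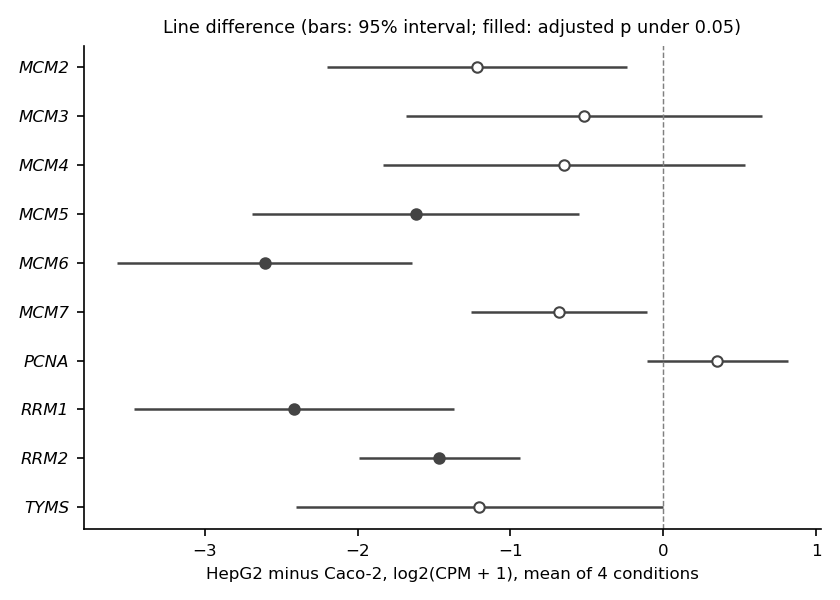
Difference between HepG2 and Caco-2 in log2(CPM + 1), averaged over the 4 conditions (horizontal axis), for each of the 10 genes; points are limma estimates from 16 libraries, bars are 95% intervals and filled points passed. RRM1 (-2.42), RRM2 (-1.47), MCM5 (-1.62) and MCM6 (-2.61) are filled and lie left of 0, and PCNA (0.35) is the only point right of 0.

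The genes that work beside the members were described in the same comparison, by lists of replication and cell cycle genes. The counts of each list stand beside 17.9% lower and 12.5% higher in HepG2 among all genes tested. Of 11 genes that activate the helicase or travel with it, 6 were lower in HepG2 and none was higher, with a list median of -1.60. Among them were MCM10 (-2.42 on the log2 scale, adjusted p = 0.000118), which is needed for helicase activation, DBF4 (-2.61, adjusted p = 0.000713) and CDC7 (-2.22, adjusted p = 0.00119), which form the kinase that phosphorylates the MCM ring, and GINS2 (-1.68, adjusted p = 0.00227), part of the active helicase. Origin recognition and licensing had a list median of -0.11, with ORC6 (-1.28, adjusted p = 0.00997) and GMNN (-0.75, adjusted p = 0.00114), the inhibitor of MCM loading, lower and ORC5 (1.02, adjusted p = 0.0455) higher among 9 genes. The counts of this list lie near the shares of all genes. These p-values are limma's, adjusted over all genes, and the values before them are differences of HepG2 from Caco-2. CDC7 rests on levels near the floor, at 0 to 9.64 CPM in Caco-2 and 0 to 0.61 CPM in HepG2. MCM10 does so in HepG2, at 2.74 to 14.8 CPM in Caco-2 and 0 to 2.32 CPM in HepG2.

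Of 12 polymerase and primase genes, 5 were lower in HepG2 and 1 was higher (median -0.87). POLD4 (-1.10), POLE (-1.65) and POLD3 (-1.89) were lower and POLD2 (1.00) was higher, all being subunits of the replicative polymerases delta and epsilon. In HepG2, POLE (0 to 4.64 CPM) and POLD3 (0 to 7.06 CPM) lie near the floor of 3 reads. Of 17 clamp loader, lagging strand and chromatin assembly genes, 10 were lower and 1 was higher (median -1.15). They included PCLAF (-1.91), which binds PCNA, RFC4 (-1.70) and RFC3 (-2.25) of the loader that opens the PCNA ring, and RPA3 (-1.15) of the single-strand binding protein.

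Other nucleotide synthesis genes went both ways, with 6 of 22 higher and 4 lower in HepG2 (median 0.41). The count of lower genes lies near the share of all genes (17.9%), and that of all genes higher was 12.5%. TK1, the thymidine salvage kinase of dividing cells, was lower (-3.15, adjusted p = 5.99e-05, limma), at 48.2 to 113 CPM in Caco-2 and 0 to 20.5 CPM in HepG2. NME1 (1.01), which phosphorylates nucleoside diphosphates, and ADSL (1.09) and PAICS (0.81) of purine synthesis were higher. Of 17 G1/S regulators tested, 6 were lower and none was higher (median -0.14), led by CDKN1B (-2.63), an inhibitor of cyclin-dependent kinases, E2F8 (-1.62) and E2F7 (-1.15), E2F factors that repress, and CDK2 (-1.65). E2F8, at 0 to 5.94 CPM in Caco-2 and 0 to 0.98 CPM in HepG2, lies near the floor of 3 reads. So does E2F7, at 0 to 3.22 CPM in Caco-2 and 0 in all HepG2 libraries. Of 20 G2/M genes, 19 were lower and none was higher (median -2.05), with CDK1 (-4.51), UBE2C (-3.78), CCNB1 (-2.02) and PTTG1 (-3.31) of smallest adjusted p. CDK1, the mitotic kinase, was at 367 to 721 CPM in Caco-2 and 8.80 to 60.4 CPM in HepG2 with no overlap, which was not counted for all genes.

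**Figure D3:**
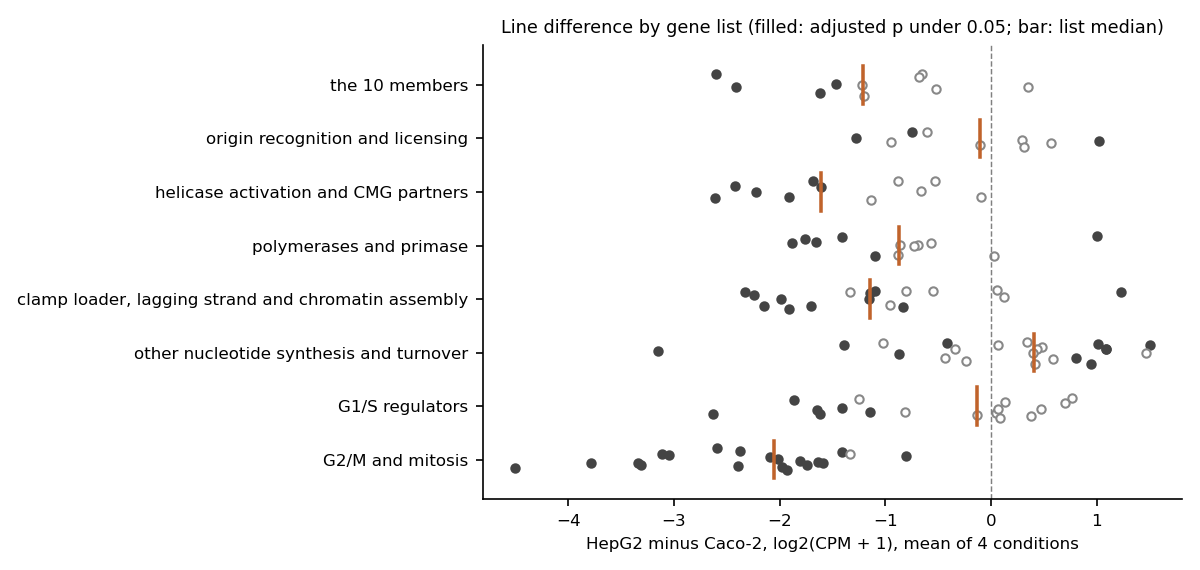
Difference between HepG2 and Caco-2 in log2(CPM + 1), averaged over the 4 conditions, for each gene of the members and of 7 lists (points; filled where the gene passed), with the list median as a vertical bar. The medians run from -2.05 for G2/M genes and -1.60 for helicase partners to 0.41 for other nucleotide synthesis genes, with the members at -1.21.

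The second comparison asked whether joining the lines changed the members. PCNA had a higher mean in co-culture than in mono-culture in both lines, but in neither did it pass limma's test over all genes as laid out. In Caco-2 this depended on the setting: PCNA passed limma with a replicate block, where 1.36% of all genes passed, with no filter on low values (0.885%) and with a filter at a mean of 10 CPM (4.97%). In Caco-2 cells, PCNA stood at 16.4 and 17.6 CPM in mono-culture without FFA, 24.7 and 37 CPM in mono-culture with FFA, 83.2 and 36.7 CPM in co-culture without FFA and 60.5 and 39.4 CPM in co-culture with FFA. In HepG2 cells, PCNA stood at 20.9 and 34.2 CPM in mono-culture without FFA, 33 and 36.4 CPM in mono-culture with FFA, 59.7 and 65.5 CPM in co-culture without FFA and 54.4 and 80.6 CPM in co-culture with FFA. In HepG2, the 4 co-culture libraries (54.4 to 80.6 CPM) lay above the 4 mono-culture libraries (20.9 to 36.4 CPM), and in Caco-2 the ranges met at 36.7 and 37.0 CPM. How many of all genes were separated by culture in this way was not counted. Averaged over treatment, the limma difference of co-culture from mono-culture was 1.16 ± 0.28 (SE, 95% interval 0.56 to 1.76, adjusted p = 0.0960) in Caco-2 and 1.06 ± 0.27 (SE, 95% interval 0.45 to 1.67, adjusted p = 0.554) in HepG2. The unadjusted p-values from limma were 0.00102 and 0.00385. In HepG2 co-culture with FFA the PCNA values stand on 8 and 4 reads.

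No member passed limma in the averaged co-culture comparison of either line, where 0.453% of 15454 genes passed in Caco-2 and 0% of 14430 in HepG2. At an unadjusted p under 0.05, 1 member, PCNA, was found in each, against 11.8% of all genes in Caco-2 and 7.72% in HepG2, so the count of members was close to the background. edgeR called PCNA in Caco-2 (adjusted p = 0.00501), where it called 8.47% of 4595 genes, and no member in HepG2, where it could test 3. DESeq2 called no member in any comparison within a line, and its own filter left most members without an adjusted p in most of them. Without FFA alone, the limma difference of PCNA was 1.65 ± 0.40 (SE, 95% interval 0.79 to 2.50, adjusted p = 0.221) in Caco-2 and 1.19 ± 0.38 (SE, 95% interval 0.33 to 2.06, adjusted p = 1.00) in HepG2. Both comparisons reuse the libraries of the averaged ones. The test of whether the averaged co-culture effect differed between the lines called no member, with 0.0969% of all genes called, and no member there had an unadjusted p under 0.05, against 9.72% of all genes.

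The other members gave no call with co-culture. In Caco-2, 9 of 10 members had a positive difference, with a median of 0.36 against 0.14 for all genes, and RRM1 was the exception at -0.49 ± 0.28 (SE, 95% interval -1.08 to 0.10, adjusted p = 0.510). RRM1 stood at 31.7 to 38.3 CPM in mono-cultured and 16 to 33.9 CPM in co-cultured Caco-2. In HepG2, 6 were positive and 4 negative, with a median of 0.12 against -0.09, from MCM2 at -0.99 ± 0.61 (SE, 95% interval -2.39 to 0.41, adjusted p = 0.697) to MCM5 at 1.24 ± 0.77 (SE, 95% interval -0.53 to 3.01, adjusted p = 0.698). The 10 members summed to 77.7 to 127 CPM in mono-cultured HepG2 and 149.6 to 204 CPM in co-cultured HepG2, which did not overlap. Without PCNA the ranges were 44.8 to 91.0 and 80.6 to 149.6 CPM, which did. In HepG2 co-culture with FFA the sums of all 10 stand on 30 and 8 reads. How often sums of other genes were separated by culture was not counted. In Caco-2 the sums were 195 to 254 and 222 to 311 CPM.

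Some line markers differed with co-culture in Caco-2, and no line marker passed limma in HepG2. There 2 of the 10 Caco-2 markers could be tested, and 0% of all genes passed. In Caco-2, 3 of 10 HepG2 markers rose in co-culture by limma, AFP by 0.97, TTR by 0.58 and APOA1 by 0.38 on the log2 scale, and the summed level of all 10 was 8924 to 10240.5 CPM in mono-culture and 11419 to 12078 CPM in co-culture. None of 8 Caco-2 markers tested passed in Caco-2, and their sum was 118 to 151 CPM in mono-culture and 167 to 198 CPM in co-culture. In HepG2 the sum of Caco-2 markers was 14.5 to 25.4 CPM in mono-culture, 22.9 to 25.4 CPM in co-culture without FFA and 61.2 to 101 CPM in the shallow co-culture FFA libraries. In these last libraries the sum was VIL1 alone, an actin-binding protein of microvilli, on 9 and 5 reads, and VIL1 was also at 14.5 to 24.4 CPM in mono-cultured HepG2. The other 9 Caco-2 markers, CDH17 among them, had at most 1 read in any HepG2 library. The part of these markers in the PCNA values was not tested. CENPF, a kinetochore protein of the G2/M list, was the 1 gene of the replication and cell cycle lists to pass limma in Caco-2, at 0.96 ± 0.18 (SE, adjusted p = 0.0340), and none passed in HepG2.

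Among the list genes that did not pass, those of smallest p in Caco-2 co-culture were FEN1 (1.29), the flap endonuclease that acts with PCNA on the lagging strand, POLE (1.99), DTYMK (0.79), E2F8 (1.57), ORC5 (1.31) and GINS4 (1.22), with adjusted p from 0.126 to 0.468 by limma. In HepG2 co-culture they were CDT1 (1.85), a factor that loads MCM2-7, CDC20 (1.30), CDKN1B (0.91), GINS2 (1.41), RFC1 (0.40), CTPS1 (-1.33) and POLA1 (1.23), with adjusted p from 0.628 to 0.709 by limma.

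**Figure D4:**
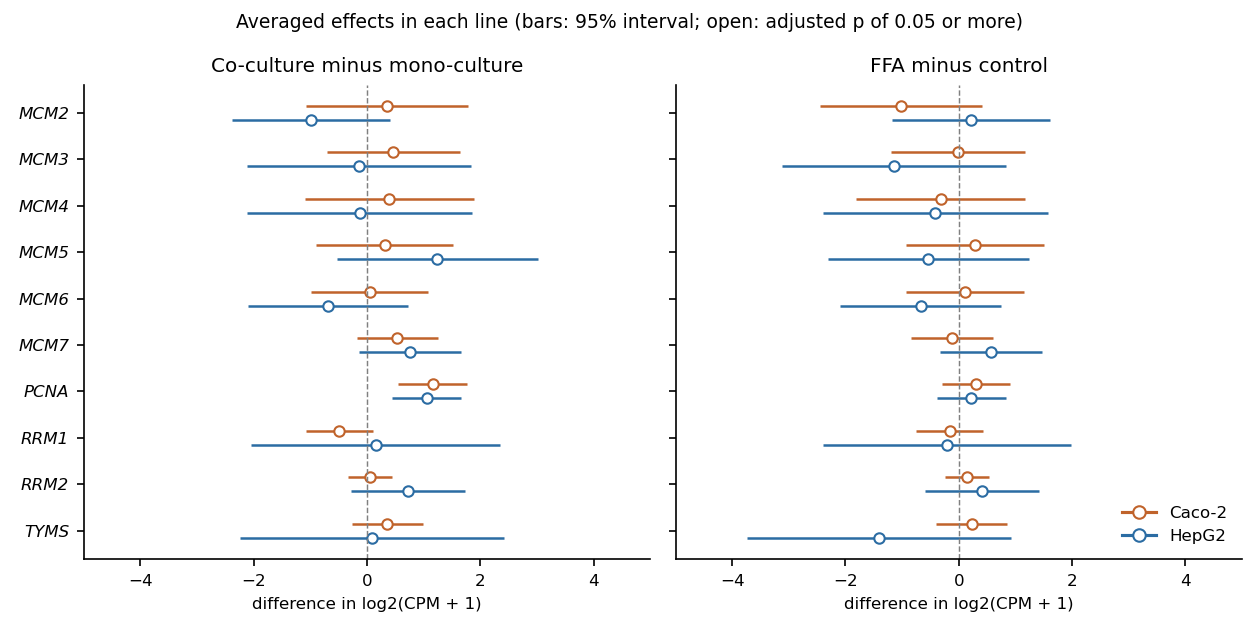
Difference in log2(CPM + 1) between co-culture and mono-culture (left) and between FFA and control (right), each averaged over the other factor, for the 10 genes in Caco-2 and HepG2; points are limma estimates from 8 libraries a line and bars are 95% intervals. All points are open, PCNA lies at 1.16 in Caco-2 and 1.06 in HepG2 with co-culture, and the intervals of the other members, and of all members with FFA, include 0.

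The third comparison asked whether FFA changed the members. No member passed limma in either line, and none had an unadjusted p under 0.05 in the averaged FFA comparison, against 4.85% of all genes in Caco-2 and 13.8% in HepG2. Of all genes, 0% passed in Caco-2 and 0.0762% in HepG2. In Caco-2 the differences ran from MCM2 at -1.02 ± 0.67 (SE, 95% interval -2.45 to 0.41, adjusted p = 0.829) to PCNA at 0.31 ± 0.28 (SE, 95% interval -0.29 to 0.91, adjusted p = 0.829), with a median of 0.05 against 0.04 for all genes. In HepG2 they ran from TYMS at -1.41 ± 1.02 (SE, 95% interval -3.74 to 0.93, adjusted p = 0.597) to MCM7 at 0.56 ± 0.39 (SE, 95% interval -0.34 to 1.46, adjusted p = 0.577), with a median of -0.31 against -0.07. PCNA in HepG2 was at 0.22 ± 0.27 (SE, 95% interval -0.39 to 0.83, adjusted p = 0.743), and this small difference changed sign with the scaling of the libraries. The half-width of the intervals ran from 0.38 for RRM2 to 1.49 for MCM4 in Caco-2 and from 0.61 for PCNA to 2.34 for TYMS in HepG2, so the size of change that could be seen differed widely between members.

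TYMS had the widest of these intervals in HepG2. In Caco-2 cells, TYMS stood at 13.7 and 18.8 CPM in mono-culture without FFA, 17.3 and 32.1 CPM in mono-culture with FFA, 29.7 and 22.6 CPM in co-culture without FFA and 21.6 and 28.3 CPM in co-culture with FFA. In HepG2 cells, TYMS stood at 13.9 and 10.8 CPM in mono-culture without FFA, 2.36 and 14.5 CPM in mono-culture with FFA, 18.7 and 20.1 CPM in co-culture without FFA and 27.2 and 0 CPM in co-culture with FFA. The 0 of TYMS in HepG2 co-culture with FFA belongs to the library of 49634 reads and allows up to 60.4 CPM, more than any other library showed. Leaving out the other library of that group made 2 members pass, TYMS and MCM3, both lower with FFA, in a fit that called 11.9% of all genes, and left the library with 0 reads of both alone in its group. RRM2 was at 0.15 ± 0.18 (SE, 95% interval -0.24 to 0.53, adjusted p = 0.865) with FFA in Caco-2, the narrowest interval of the 10.

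FFA in mono-culture and in co-culture was also taken apart, along with co-culture with and without FFA and the interaction of both. Each of these comparisons shares libraries with others of them. No member passed limma in any of them. The shares of all genes called in Caco-2 were 0.00647% for FFA in mono-culture, 0% for FFA in co-culture, 0.0971% for co-culture without FFA, 0.0971% for co-culture with FFA, 0% for the interaction and 0.155% for the F-test among the 4 groups. In HepG2 each of the same 6 comparisons called 0% of all genes. The line difference in the FFA effect called 0.0912% of all genes and no member. At an unadjusted p under 0.05, the members in Caco-2 numbered 1 for FFA in mono-culture (5.8% of all genes), 1 for co-culture without FFA (10.3%), 1 for the F-test (8.17%) and 0 for FFA in co-culture (4.88%), co-culture with FFA (7.78%) and the interaction (5.02%). In HepG2 they numbered 1 for FFA in co-culture (15.9% of all genes), 3 for co-culture with FFA (14.7%), 1 for co-culture without FFA (2.61%), 1 for the F-test (12.2%) and 0 for FFA in mono-culture (6.26%) and the interaction (6.94%). With 10 members, each count but the 3 lay within 1 member of these shares, and the 3 rest on the shallow libraries. For the line difference in the FFA effect it was 0, against 11.4% of all genes. edgeR called PCNA in Caco-2 for co-culture without FFA (adjusted p = 0.0227), where it called 1.48% of its genes, and PCNA in the F-test of each line, where it called 5.09% in Caco-2 and 8.76% in HepG2.

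With FFA, no gene of the replication and cell cycle lists passed limma in either line. Those of smallest p in Caco-2 were CDK1 (-0.32), RPA2 (-0.79), PAICS (-0.60), E2F4 (-1.17), ORC6 (0.49), POLE (1.29) and GINS2 (0.58), each with an adjusted p of 0.829. In HepG2 they were RNASEH2B (1.13), IMPDH2 (0.53), POLD1 (-1.46), E2F4 (1.33), MCM10 (-1.37), CDK1 (0.97) and ORC5 (1.24), with adjusted p from 0.203 to 0.311.

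The mean of the 10 members, on the log2(CPM + 1) scale and centred within each line, was compared across the 16 libraries with 2914 genes of at least 20 CPM on average in both lines. The genes most like it were PSMC4, a proteasome ATPase (Pearson's r = 0.874), BOLA3, which takes part in iron-sulfur cluster assembly (0.855), LAMTOR1, of a lysosomal signalling complex (0.836), THYN1 (0.831) and PLA2G12B, of the phospholipase A2 family (0.825). The median r over all these genes was 0.031 and its largest 1% lay above 0.748. The points share their libraries and depth, and 4 of these 5 genes had their lowest value in the shallowest library. Without that library the 5 coefficients were 0.777, 0.865, 0.723, 0.806 and 0.693, in the same order.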

How the data were processed

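Polyadenylated RNA of 16 libraries was read by nanopore sequencing of barcoded PCR-amplified cDNA. The submitters' processing notes name GRCh38 and minimap2 2.22; the methods of the study name STAR and RSEM, giving TPM, for mRNA-seq, without saying for which libraries. Which of these made the deposited values was not settled, and whether strand was used is not given in the sources used here. The deposited values are named TPM, but in each library they were whole multiples of 1 step, so they are CPM, the authors' whole read counts per gene divided by the library total, uncorrected for length. Whole reads were recovered by dividing by that step, and 99.6 to 100% of values above 0 came out within 0.1 read of a whole number. The tests had been laid out with TPM in mind and were run on CPM unchanged.

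Genes whose mean reached 1 CPM in any group fitted were tested on log2(CPM + 1) with limma 3.58.1 (R 4.3.3; trended prior, group means, Benjamini-Hochberg over all genes, threshold 0.05, two-sided), in 8 libraries for a line (15454 genes in Caco-2, 14430 in HepG2) and 16 between lines (17544 genes). edgeR 4.0.16 (quasi-likelihood) and DESeq2 1.42.0 on the recovered reads were alternatives, with other scalings, pseudocounts, filters, a replicate block and single libraries left out. Leaving out both HepG2 co-culture FFA libraries was chosen after seeing the data. Scripts were tested on simulated data. Intervals of pooled reads and floors of 3 reads cover counting error only. The members and gene lists were chosen with earlier results of these data known. Named were all members and, from each list and comparison, the genes that passed with the smallest adjusted p (up to 4) or, where none passed, the gene of smallest p. The line markers CDH17, SI, ISX and LGALS4 were named after their values were seen.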

Additional observations from a re-analysis of the deposited data

Results flagged for a closer look

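AHSG, a plasma protein of the liver and 1 of the 10 HepG2 line markers, differed between the lines in its averaged FFA effect, by 0.58 on the log2(CPM + 1) scale (limma on 16 libraries; adjusted p = 0.0112 over all genes). With FFA it was higher in HepG2 (0.41 ± 0.05 (SE, adjusted p = 0.0372)) and did not pass in Caco-2 (-0.17 ± 0.08 (SE, adjusted p = 0.829)). AHSG ranged from 919 to 1218 CPM in Caco-2 and from 2656 to 4024 CPM in HepG2. It is no replication gene. Among the members, no difference between lines in the FFA or co-culture effect passed. With 2 libraries a group, no group could be searched for a library that stands apart.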

How the results depend on the processing

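RRM1, RRM2 and MCM6 were lower in HepG2 in every alternative that tested them, and no alternative turned the direction of any of the 10 averaged line differences. Over all genes, that comparison called 5322, and 3411 to 6578 in the alternatives that did not leave out single libraries. In mono-culture control, 1851 of all genes passed, and 1671 to 2735 in the alternatives that did not leave out single libraries. Of the members, 1 passed in that comparison, and 0 passed with a pseudocount of 0.1 or a constant prior variance. There 2 passed (RRM2 and RRM1) with edgeR, DESeq2, quantile normalization, a filter at 10 CPM, rescaling by median ratios, a threshold of 0.1, both HepG2 co-culture FFA libraries left out, or its 4 libraries alone, and 0 to 2 with 1 library left out. PCNA was the 1 member called in Caco-2 for the averaged co-culture comparison with edgeR, a threshold of 0.1, or a filter at 10 CPM or none, and for co-culture without FFA and the F-test with edgeR or a filter at 10 CPM. Of all genes, the threshold of 0.1 called 173 of 15454 in the averaged comparison. The filter at 10 CPM called 93 of 6481 for co-culture without FFA and 133 of 6481 in the F-test. In the HepG2 F-test, edgeR called 1 (PCNA). An ordinary F-test with the thresholds of the study called 2 (PCNA and MCM7). Those thresholds take an unadjusted p under 0.05 and a least fold change, and they called 2112 of all 14430 genes. The count of members was thus close to the background. In Caco-2 the same test called 0 members and 1362 of 15454 genes. The cause of the differences between settings was not tested. PCNA in HepG2 with FFA (0.22) turned to -0.12 with quantile normalization, -0.063 with median-ratio rescaling, -0.093 by edgeR and -0.14 by DESeq2. Without HepG2 co-culture FFA replicate 1, the library of 49634 reads stood alone in its group. Member calls changed there in some comparisons that use this group. In the averaged FFA comparison of HepG2, calls over all genes rose too, so these changes are not read as results on the members.

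Whether replicate numbers pair the libraries is not given, and the correlations do not settle it: 0 of 6 pairs of groups in each line correlated above 0.1 (mean 0.012 in Caco-2 and 0.003 in HepG2); over genes of at least 100 CPM, 4 of 6 did in Caco-2 and 3 of 6 in HepG2. With a replicate block, 1 member (PCNA) passed in the averaged Caco-2 co-culture comparison and 2 in mono-culture control between lines, and no other count of members changed. Depth limits the HepG2 co-culture FFA values most.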
